A study of Homo sapiens with 21 samples.

Results

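A stretch of 5 Mb in band 1p13, chr1:108000000-113000000 (hg38), held an unusual number of FGFR1 peaks in CAMA1 breast cancer cells. It was taken as every peak that overlaps those coordinates, whatever the target. The 14 peak lists put 8416 of their 702826 peaks on chromosomes 1 to 22 and X there, and 70176 on the rest of chromosome 1. The segment was selected on the number of FGFR1 peaks per Mb, so the numbers, spacing and strength of FGFR1 peaks in it are described without a test. Overlaps with other targets were not used in that choice, but their shares are taken over the number of FGFR1 peaks. Tests of these shares are thus not fully independent of the choice.

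FGFR1 carries fibroblast growth factor signals across the cell membrane as a receptor tyrosine kinase, and it can also be found in the nucleus. CAMA1 is a line of luminal breast cancer cells with oestrogen receptor, which the labels call FGFR1-amplified. Chromatin immunoprecipitation with sequencing (ChIP-seq) was done for FGFR1 in 3 groups, namely cells given an siRNA against FOXA1 (siFOXA1), cells given a non-targeting siRNA (siNT), and cells that were not transfected. H3K27ac, H3K4me3, FOXA1 and the form of RNA polymerase II that carries phosphate on serine 5 of its tail (Pol II S5P) were profiled in untransfected cells. All cells had 48 h of medium without estradiol, and the siRNA groups were collected 72 h after transfection. Each of the 7 groups had 2 lists. All come from a single cell line, and the labels do not say that the 2 lists of a group are separate cultures, so p-values measure only the spread between lists, which may be technical.

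H3K4me3 marks the starts of active genes, and H3K27ac marks active starts and enhancers. Serine-5 phosphorylation of Pol II accompanies the beginning of transcription, and FOXA1 is a pioneer factor that opens chromatin at luminal enhancers. A peak is a place where the peak caller counted more DNA fragments than a background allows, and its fold enrichment is the height of its summit over that background. The segment is rich in genes, with 15.8 protein-coding genes per Mb (79 genes) against 8.15 per Mb on the rest of chromosome 1. It carries the glutathione S-transferase mu cluster, several potassium channel genes, the adhesion receptor gene CELSR2 and many genes for routine cell functions.

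Whole lists held 4332 and 5056 (siFOXA1), 6007 and 6594 (siNT) and 5341 and 13135 (untransfected) FGFR1 peaks, and between 12267 and 154358 peaks for the other targets. Among 10 markers of luminal epithelium, 9 had reproducible H3K4me3 and H3K27ac within 1 kb of a gene end, and ESR1 had H3K27ac but no H3K4me3 there. Both marks were also present for 2 of 5 blood markers (not PTPRC or CD3E), 2 of 4 mesenchymal markers and 2 of 2 neuronal markers. Each FGFR1 list had been called against 1 background for the whole genome, 2.11 to 2.20 fragments per position in the transfected and 3.40 to 3.50 in the untransfected FGFR1 lists. A local excess of recovered DNA of any kind is therefore not divided out of these values. The inputs and the DNA copy number of the segment were not analysed here, and their part in the results was not tested.

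The sequences of 4 gene starts introduce the chromatin of the segment. They were read from RefSeq promoter windows (GRCh38.p14), which run from 250 bases before to 50 bases after a start and were found for 66 of the 79 genes. DDX20, ATXN7L2 and GPSM2 are shown because FGFR1 peaks of all 6 lists lay over each of these windows. KCNA3 is shown because no FGFR1 list had a peak over its window, and neither did H3K4me3, although it lies inside the crowded stretch. Capitals mark 6 motifs searched for on either strand. They are the GC box written as GGGCGG, the CCAAT box, the core of ETS factor motifs written as CGGAAG, the TATA box written as TATAAA and the forkhead motif written as TNTTTAC. The last is the NRF1 motif, which begins with GCGC and, after a base of any kind, closes with TGCGC. A match describes the letters only, and 2 of the GC boxes of GPSM2 share bases.
DDX20, chr1:111755651-111755950, plus strand: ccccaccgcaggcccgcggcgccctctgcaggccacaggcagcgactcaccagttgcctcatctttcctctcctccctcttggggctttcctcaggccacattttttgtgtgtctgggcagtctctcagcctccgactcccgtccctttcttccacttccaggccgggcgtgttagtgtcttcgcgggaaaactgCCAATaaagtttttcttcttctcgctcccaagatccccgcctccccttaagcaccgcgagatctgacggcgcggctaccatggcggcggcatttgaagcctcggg
ATXN7L2, chr1:109483655-109483954, plus strand: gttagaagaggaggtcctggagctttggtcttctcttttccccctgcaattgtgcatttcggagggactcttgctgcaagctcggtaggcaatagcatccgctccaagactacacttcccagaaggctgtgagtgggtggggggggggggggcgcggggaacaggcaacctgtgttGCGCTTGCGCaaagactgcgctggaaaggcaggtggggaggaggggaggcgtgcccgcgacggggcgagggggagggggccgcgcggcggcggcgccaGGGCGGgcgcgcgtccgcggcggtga
GPSM2, chr1:108876735-108877034, plus strand: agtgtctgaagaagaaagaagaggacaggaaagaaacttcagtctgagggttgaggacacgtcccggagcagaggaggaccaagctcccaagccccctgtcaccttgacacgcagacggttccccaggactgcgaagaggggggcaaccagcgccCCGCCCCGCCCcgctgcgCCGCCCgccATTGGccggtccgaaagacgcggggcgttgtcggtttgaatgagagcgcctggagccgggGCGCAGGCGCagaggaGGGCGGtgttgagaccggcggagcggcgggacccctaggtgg
KCNA3, chr1:110674891-110675190, minus strand: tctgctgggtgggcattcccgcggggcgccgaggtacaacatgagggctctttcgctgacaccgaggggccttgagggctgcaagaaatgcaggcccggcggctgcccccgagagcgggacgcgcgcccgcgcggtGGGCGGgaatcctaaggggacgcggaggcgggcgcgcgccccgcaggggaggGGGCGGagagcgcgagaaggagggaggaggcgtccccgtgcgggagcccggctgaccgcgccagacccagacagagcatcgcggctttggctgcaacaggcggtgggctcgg

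All 4 windows are rich in CpG, with 21, 26, 27 and 37 CpG dinucleotides in the order printed. Of all 35116 promoter windows in the table, 45.0% hold the GC box, 34.6% CCAAT, 19.5% the ETS core, 5.78% the NRF1 motif, 11.5% TATAAA and 10.8% the forkhead motif. Among the 66 windows of the segment the counts were 34, 25, 16, 5, 1 and 5. Windows under FGFR1 peaks of all 6 lists (13 windows) had a median of 24 CpG, from 18 to 28. The other 33 windows with H3K4me3 had the same median of 24, from 1 to 53, and the 20 windows without H3K4me3 a median of 4, from 0 to 37. Median CpG number thus differed between marked and unmarked starts, whose ranges overlap, and was the same for starts shared by all FGFR1 lists and for other marked starts.

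The segment held far more FGFR1 peaks per Mb than the rest of chromosome 1 in each of the 6 FGFR1 lists. The siFOXA1 lists had 109 and 135 peaks per Mb in the segment, against 2.34 and 2.96 on the rest of chromosome 1. The siNT lists had 127 and 129.8, against 3.32 and 3.69. The untransfected FGFR1 lists had 28.8 and 69.2, against 2.46 and 5.05. The density ratio of segment over rest was 46.1 ± 0.639 after siFOXA1, 36.6 ± 2.15 after siNT and 12.7 ± 1.42 in untransfected cells (SD, n = 2 lists each).

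Pol II S5P was the other target crowded in this way. Its lists had 184 and 82.6 peaks per Mb in the segment, against 8.13 and 4.89 on the rest of chromosome 1, a ratio of 19.7 ± 4.04. The histone marks and FOXA1 were denser by much smaller factors, 3.03 ± 0.0585 for H3K27ac, 2.31 ± 0.0565 for H3K4me3 and 3.68 ± 0.102 for FOXA1 (SD, n = 2 lists each). With peaks of a -log10 q-value of at least 5 the ratio was 6.37 for Pol II S5P and 6.78 for untransfected FGFR1, while it was 40.5 for siFOXA1 and 25.6 for siNT. Part of the excess of Pol II and of all 3 FGFR1 groups thus lay in peaks under that value. The ratio fell most, relative to its size, for Pol II and untransfected FGFR1.

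**Figure D1:**
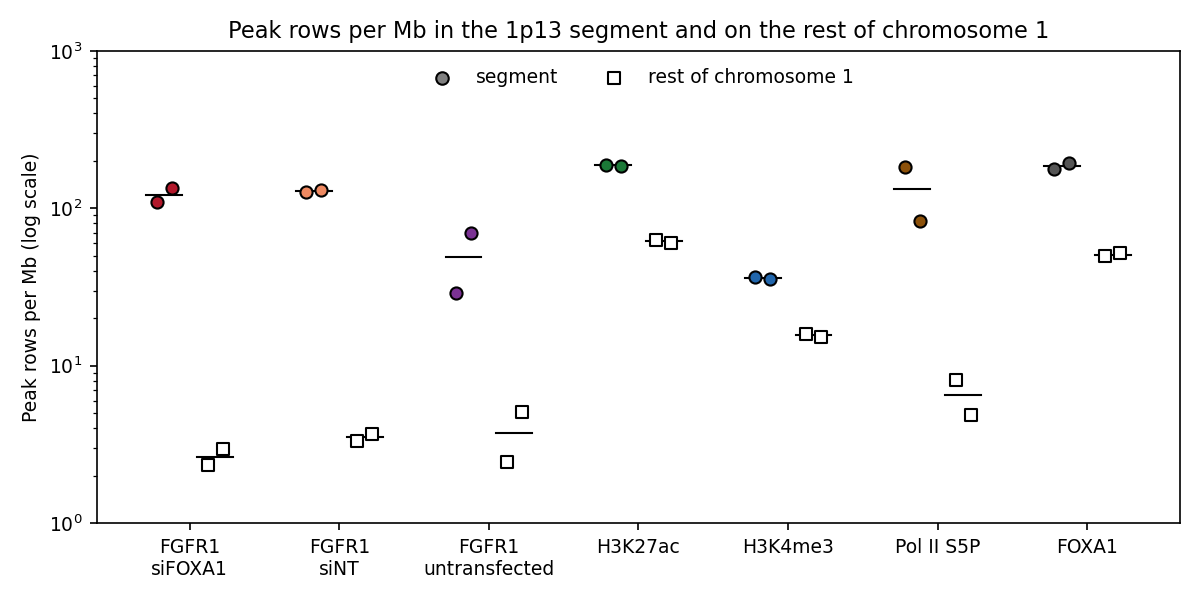
Peaks per Mb (log scale) in the 1p13 segment (filled circles) and on the rest of chromosome 1 (open squares) for the 2 lists of each of the 7 groups, with a line at their mean. The filled circles of FGFR1 and Pol II S5P stand 11.7 to 46.5 times above the open squares of the same lists, and those of H3K27ac, H3K4me3 and FOXA1 2.27 to 3.75 times.

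The peaks that make up the crowd were weak. Median fold enrichment in the segment was 4.82 and 4.69 after siFOXA1 and 4.71 and 4.70 after siNT, the same values as on the rest of chromosome 1. Those medians stand for summits of 14 fragments over a background of 2.11 to 2.20. In untransfected cells the medians were 4.32 and 4.00 in the segment, below the 5.46 and 5.55 of the rest of chromosome 1. Peaks with a -log10 q-value under 5 made up 54.2% and 59.5% of the untransfected FGFR1 peaks in the segment, against 19.9% and 19.3% elsewhere on chromosome 1. In the transfected lists such peaks were more frequent. They made up 78.5% and 81.2% of the siFOXA1 peaks in the segment, against 74.9% and 79.2% elsewhere. For siNT they made up 78.2% and 76.6%, against 67.4% and 68.0%. Median distance between neighbouring summits was 4726 and 3589.5 bp in the segment after siFOXA1, against 54066.5 and 34051 bp on the rest of chromosome 1. After siNT it was 3877 and 3725.5 bp, against 48519 and 41990 bp. Neighbouring peaks of the segment were thus a few kb apart.

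The crowding ended on both sides within the segment. Its edges were placed at the outermost transfected FGFR1 peaks of a crowded run. Low counts of those 4 lists just outside, and high shares inside, are thus partly set by that rule. With 50-kb bins, and a bin called crowded when the 4 transfected FGFR1 lists together had at least 10 times the mean of the bins outside the segment (6.15 peaks), the crowded stretch ran from position 108856967 to 112731665. It was 3.87 Mb long, and all 78 of its bins were crowded, against 102 of 4867 bins of chromosome 1 outside the segment. The stretch held 99.4% and 99.9% of the siFOXA1 peaks of the segment, 99.5% and 98.9% of the siNT peaks, and 96.5% and 97.7% of the untransfected FGFR1 peaks. H3K27ac peaks, which are spread over the whole segment, had 88.4% and 88.6% of theirs in it.

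The left edge fell inside AKNAD1 (108815901 to 108858244). GPSM2, whose product orients the mitotic spindle, began 20.02 kb inside, and STXBP3, a gene of vesicle fusion, ended 47.4 kb outside. In the 100 kb inside this edge the siFOXA1 lists had 25 and 30 peaks and the siNT lists 27 and 26, against 0 in the 100 kb outside in all 4 lists. Pol II S5P had 49 and 24 peaks inside and 2 and 1 outside. H3K27ac crossed the same edge with 34 and 31 peaks inside and 20 and 15 outside, and FOXA1 with 20 and 22 inside and 14 and 16 outside.

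The right edge lay 4.43 kb beyond TAFA3, with PPM1J, a protein phosphatase gene, just inside and SLC16A1, a lactate transporter gene, 180 kb outside. In the 100 kb inside it the siFOXA1 lists had 13 and 22 peaks and the siNT lists 25 and 31, against none outside after siFOXA1 and 0 and 2 after siNT. Pol II S5P had 39 and 23 peaks inside and 0 and 0 outside. At this edge H3K27ac dropped too, with 40 and 43 peaks inside and 3 and 1 outside, and so did FOXA1, with 24 and 30 inside and 1 and 3 outside. Farther out H3K27ac resumed and FGFR1 did not. Over the 500 kb outside this edge H3K27ac had 54 and 54 peaks, whereas the siFOXA1 lists had 0 and 0, the siNT lists 1 and 2 and the untransfected FGFR1 lists 1 and 2.

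By the same rule on single lists, the 4 transfected lists gave stretches of 3.85 to 3.94 Mb with left edges between 108856967 and 108867886. The untransfected FGFR1 lists gave shorter runs of 0.679 and 1.014 Mb, and Pol II S5P runs of 1.58 and 1.20 Mb that began at 108850131 and 108850242. At the limits of the segment itself, the last 500 kb inside the lower limit held 0 and 1 (siFOXA1), 0 and 2 (siNT) and 1 and 1 (untransfected) FGFR1 peaks, and the 500 kb beyond it 1 and 2 (siFOXA1), 0 and 0 (siNT) and 0 and 1 (untransfected). The last 500 kb inside the upper limit held 35 and 46 (siFOXA1), 53 and 68 (siNT) and 19 and 30 (untransfected), and the 500 kb beyond it 0 and 0 (siFOXA1), 0 and 0 (siNT) and 1 and 2 (untransfected).

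**Figure D2:**
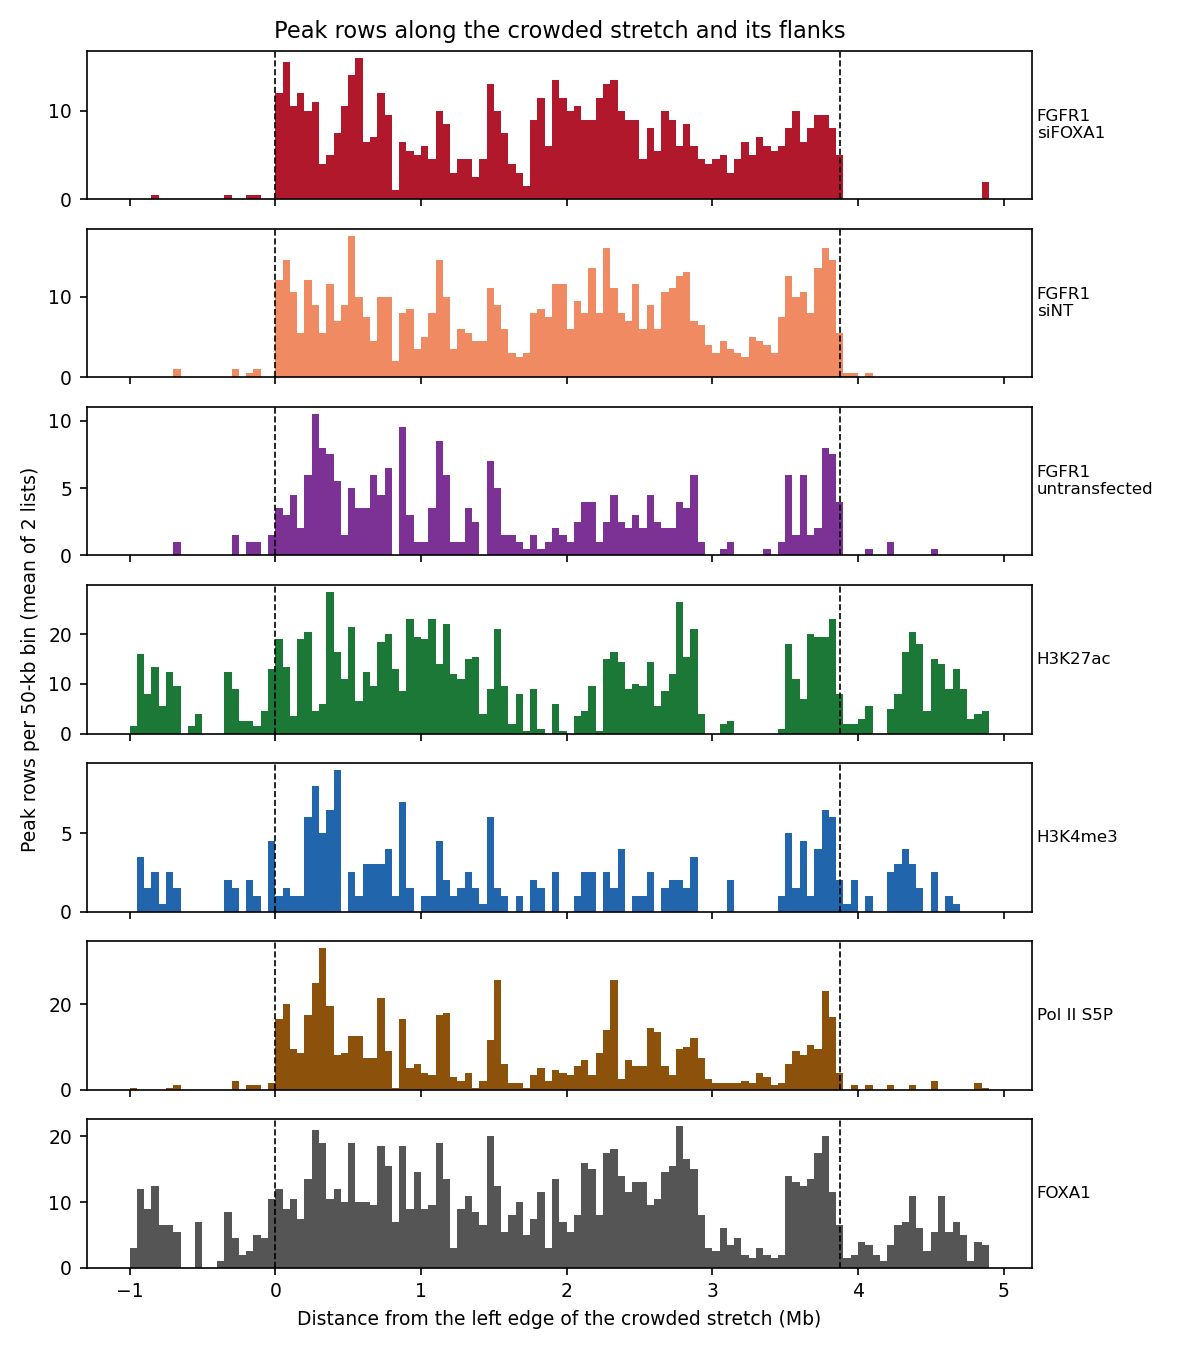
Peaks per 50-kb bin (mean of the 2 lists) for each group, by distance in Mb from the left edge of the crowded stretch, with dashed lines at both edges of the 3.87-Mb stretch. FGFR1 and Pol II S5P drop at both dashed lines and stay low, while H3K27ac, H3K4me3 and FOXA1 recur outside them, to the right after a gap. The transfected FGFR1 lists placed the lines.

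Within the stretch the transfected FGFR1 peaks were spread almost everywhere, which is partly set by the rule that drew it from bins crowded in these lists. None of its 77 whole bins lacked a peak in any of the 4 transfected lists, and the median bin had 6 and 8 peaks after siFOXA1 and 8 and 8 after siNT. In untransfected cells 27 and 10 of the 77 bins had no FGFR1 peak, and the medians were 1 and 3. The fullest bin of the transfected lists covered the ends of SORT1, a sorting receptor gene, and PSMA5, a proteasome subunit gene, with 12 and 16 siFOXA1 and 17 and 18 siNT peaks. The emptiest bin covered GSTM4, GSTM2 and GSTM1, genes of glutathione conjugation, with 1 and 1 siFOXA1 and 3 and 1 siNT peaks although it held 17 and 9 H3K27ac peaks. GSTM1 itself had no peak of any of the 14 lists in its body.

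Across the 77 bins the Spearman correlation of FGFR1 with H3K4me3 peaks was 0.28 for siFOXA1, 0.56 for siNT and 0.82 for untransfected cells. With H3K27ac peaks it was 0.18, 0.50 and 0.61. The bins are neighbours on 1 chromosome from the same libraries, so these values describe the stretch only.

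Sequence without either histone mark was described separately. The stretch was drawn from bins crowded in the 4 transfected lists together, so high counts of those lists in its bins are partly set by that rule. In 10 bins of the stretch no list of H3K27ac or H3K4me3 had a peak, and all 10 held FGFR1 peaks in each of the 4 transfected lists. They averaged 5.3 and 6.5 peaks per bin after siFOXA1 and 4.6 and 3.9 after siNT, against 0.0674 and 0.104 (siFOXA1) and 0.0850 and 0.103 (siNT) in 1765 such bins on the rest of chromosome 1. Untransfected FGFR1 averaged 0.1 and 0.4 in the stretch, against 0.00170 and 0.00283 elsewhere. Pol II S5P averaged 3.5 and 1 in the same 10 bins, against 0.0187 and 0.00623 elsewhere, and FOXA1 2.8 and 2.9, against 0.998 and 1.06.

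**Figure D3:**
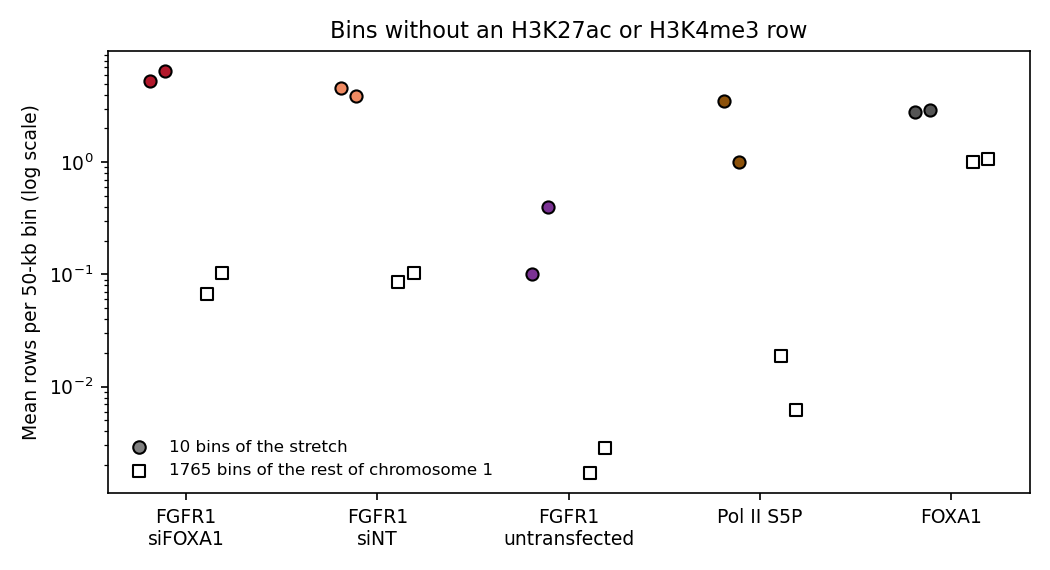
Mean peaks per 50-kb bin (log scale) in bins without an H3K27ac or H3K4me3 peak, 10 in the crowded stretch (filled circles) and 1765 on the rest of chromosome 1 (open squares), with 1 point per list. FGFR1 and Pol II S5P are far higher in the stretch in each list, and FOXA1 by less, 2.8 and 2.9 against 0.998 and 1.06. The transfected FGFR1 lists defined the stretch.

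FGFR1 peaks were also counted in some long intervals. Over the whole stretch, for comparison, the siFOXA1 lists had 140 and 174 peaks per Mb and the siNT lists 163 and 166. The untransfected FGFR1 lists had 35.9 and 87.2. Between KCND3, a voltage-gated potassium channel gene, and CTTNBP2NL lie 401 kb without a protein-coding gene, where the siFOXA1 lists had 47 and 48 peaks, the siNT lists 42 and 36 and the untransfected lists 2 and 10. The body of KCND3 itself (219 kb) had 16 and 18, 21 and 13, and 1 and 0 FGFR1 peaks, beside 5 and 2 H3K27ac peaks. Both intervals were below the density of the whole stretch in each FGFR1 list. Between KCNA3, another potassium channel gene, and CD53, a leukocyte tetraspanin gene, lie 196 kb, where the counts were 31 and 53, 32 and 44, and 2 and 9. That interval was at or above the density of the stretch in the transfected lists and below it in the untransfected lists. Transfected and untransfected lists did not overlap in any of these 3 intervals.

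Other targets at FGFR1 peaks differed between the segment and the rest of chromosome 1 most for marks of gene starts. Over the 6 FGFR1 lists, 28.2% ± 18.4 of the peaks in the segment overlapped a reproducible H3K4me3 region, against 51.2% ± 33.5 on the rest of chromosome 1 (SD, n = 6 lists). Pol II S5P was at 20.9% ± 15.5, against 40.8% ± 28.0, and a gene end within 1 kb at 17.5% ± 10.5, against 36.5% ± 25.2. Each of these 3 shares was lower in the segment in 6 of 6 lists, with mean differences of -23.04, -19.9 and -19.0 percentage points. The exact sign-flip permutation test gave p = 0.03125 for each, the smallest that 6 lists allow, and 0.0521 after Benjamini-Hochberg adjustment over the 5 comparisons, which does not pass 0.05. The number of FGFR1 peaks, which chose the segment, is the denominator of these shares. With peaks of a -log10 q-value of at least 5, or against the rest of all chromosomes, the adjusted permutation p was 0.0391 for the 3 shares. With Pol II S5P regions of either list in place of both, its difference was -8.21 points (adjusted permutation p = 0.586), and with 3 kb around gene ends theirs was -12.2 points (adjusted permutation p = 0.104).

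H3K27ac lay at 50.8% ± 18.4 of the peaks in the segment, against 55.8% ± 31.3 (exact permutation p = 0.4375, adjusted 0.4375, lower in 3 of 6 lists). FOXA1 lay at 34.6% ± 15.5, against 31.2% ± 11.5 (exact permutation p = 0.125, adjusted 0.156, lower in 1 of 6 lists). Neither passed the test. H3K27ac passed it at -8.26 points with peaks of a -log10 q-value of at least 5 and at -11.98 points against the rest of all chromosomes, and stood at -0.28 points with H3K27ac regions of either list (adjusted permutation p = 0.969). FOXA1 passed it at 6.60 points against chromosome 1 without crowded bins. The adjusted permutation p was 0.0391 in each case that passed. The SDs include differences between the 3 FGFR1 groups. After siFOXA1 the H3K4me3 share was 15.8% and 13.2% in the segment, against 29.2% and 19.0%. In siNT cells it was 19.3% and 18.8%, against 36.6% and 35.04%, and in untransfected cells 58.3% and 43.6%, against 95.3% and 92.2%. The groups did not overlap in the segment for this share.

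H3K27ac without H3K4me3, the pattern of enhancers, was more frequent at FGFR1 peaks of the segment. It was found at 21.9% and 22.5% of the siFOXA1 peaks there, against 8.26% and 7.64% on the rest of chromosome 1. In siNT cells it was at 23.9% and 21.9%, against 7.81% and 7.56%, and in untransfected cells at 16.7% and 30.9%, against 2.17% and 3.50%. Segment and rest did not overlap within any group. H3K27ac peaks themselves covered 23.2% and 22.4% of the bases of the segment, against 6.97% and 6.55% of the rest of chromosome 1. The transfected shares lie near these values. How far coverage accounts for the shares was not tested. No other target was found at 57.9% and 55.7% of the siFOXA1 peaks in the segment, against 58.9% and 68.1%, at 51.2% and 51.5% of the siNT peaks, against 51.5% and 53.9%, and at 19.4% and 19.7% of the untransfected peaks, against 2.34% and 3.99%. These combined classes were not tested.

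By position, gene bodies held the largest class of FGFR1 peaks of the segment in each list. Gene bodies away from the ends held 51.3% and 48.7% of the siFOXA1 peaks, against 35.7% and 38.8% on the rest of chromosome 1, and 51.8% and 52.7% of the siNT peaks, against 34.4% and 34.8%. In untransfected cells the shares were 43.1% and 46.8%, against 12.5% and 18.1%. Gene ends held 36.1% and 24.0% of the untransfected peaks in the segment, against 71.8% and 65.4%. The segment has 15.8 protein-coding genes per Mb, against 8.15 on the rest of chromosome 1. The share of bases that lies in gene bodies was not measured, and its part in these shares was not tested. Which exons or introns hold the peaks was not analysed here.

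Pol II S5P peaks of the segment differed in the same direction as FGFR1 peaks, which was not tested. Of its 2 lists, 18.8% and 24.5% of the peaks in the segment carried H3K27ac and H3K4me3 together, against 68.5% and 85.3% on the rest of chromosome 1, and 13.7% and 18.4% lay at a gene end, against 53.7% and 68.0%. ELAPOR1, an oestrogen-induced gene of epithelial cells, was the fullest gene for Pol II, with 78 and 33 peaks in 92.7 kb. The FGFR1 lists had 11 and 17 (siFOXA1), 9 and 13 (siNT) and 5 and 28 (untransfected) peaks in its body, and FOXA1 35 and 37. FOXA1 and H3K27ac themselves differed less, and H3K27ac peaks lay at a gene end about as often in the segment as elsewhere (12.4% and 12.6%, against 12.04% and 12.6%).

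**Figure D4:**
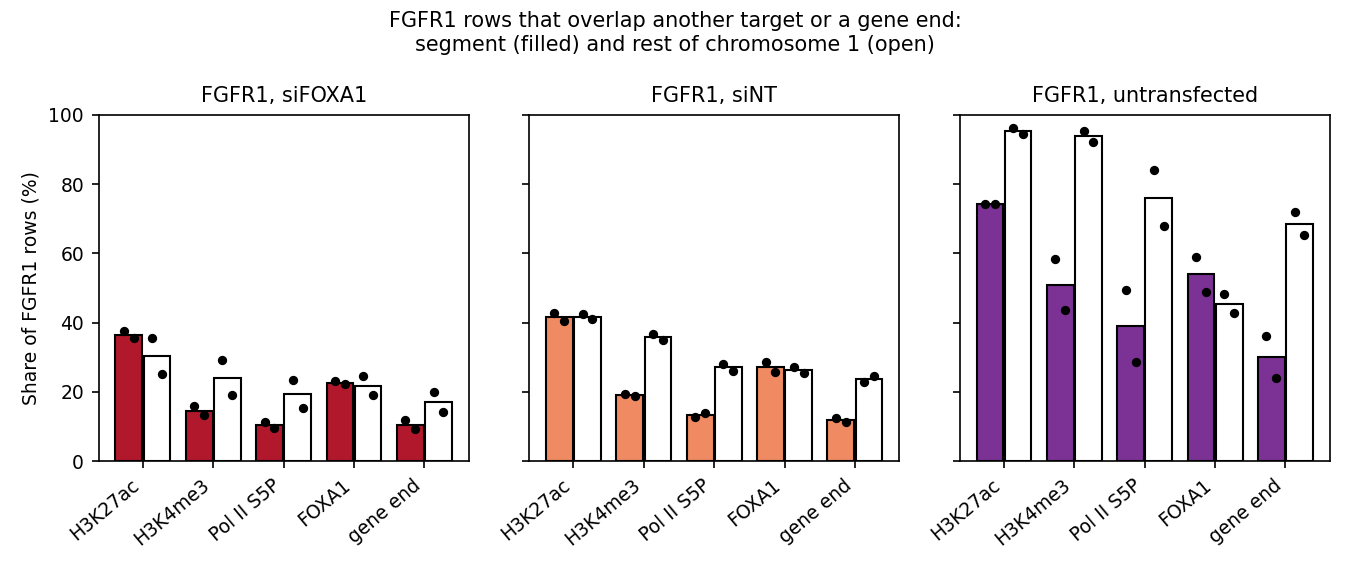
Share of FGFR1 peaks (%) that overlap a reproducible region of H3K27ac, H3K4me3, Pol II S5P or FOXA1, or a gene end within 1 kb, in the segment (filled bars) and on the rest of chromosome 1 (open bars), by FGFR1 group. Bars are means and dots the 2 lists, and the filled bars of H3K4me3, Pol II S5P and gene end are below the open bars in all 3 groups.

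Few positions were shared between transfected lists, in the segment and elsewhere. Peaks of the siFOXA1 lists covered 3.02% and 3.99% of the bases of the segment, against 0.0615% and 0.0776% of the rest of chromosome 1. Those of the siNT lists covered 3.68% and 3.94%, against 0.0927% and 0.101%. More overlap by coverage alone is thus possible in the segment, so similar shares do not mean equal recurrence. In the segment, 18.6% and 15.1% of the peaks of a siFOXA1 list overlapped a peak of the other siFOXA1 list, against 18.1% and 14.6% on the rest of chromosome 1. For siNT the shares were 22.6% and 21.9%, against 27.1% and 24.7%. Between a siFOXA1 and a siNT list the shares were 17.5% to 20.2% of the siFOXA1 peaks and 16.1% to 19.4% of the siNT peaks. Peaks of the segment were thus found in another transfected list about as often across the 2 treatments as within siFOXA1. In untransfected cells 61.8% and 23.1% were found in the other list, against 96.5% and 44.9% on the rest of chromosome 1.

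Recurrence sorted the peaks by chromatin. When FGFR1 peaks of all 6 lists were merged into 2070 intervals in the segment, 1547 (74.7%) came from a single list and 23 (1.11%) from all 6. On the rest of chromosome 1, 76.5% came from a single list and 2.27% from all 6. The single-list share was thus close to that elsewhere, although FGFR1 peaks covered a larger part of the segment in each list. Of those 23 intervals, 100% overlapped H3K4me3, 100% FOXA1, 95.7% H3K27ac and 87.0% Pol II S5P, and 78.3% lay at a gene end. Of the 1547 intervals of a single list, 6.59% overlapped H3K4me3, 16.8% FOXA1, 31.7% H3K27ac and 4.78% Pol II S5P, and 6.27% lay at a gene end. The shares for H3K4me3 were 16.6%, 27.3%, 59.5% and 87.5% for intervals of 2, 3, 4 and 5 lists.

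Many of the strongest peaks sat at gene starts. The start shared by DDX20, an RNA helicase gene of the SMN complex, and INKA2, a gene for a kinase inhibitor, led the gene ends. Its strongest peak had a fold enrichment of 10.3 and 10.6 after siFOXA1, 13.2 and 12.5 after siNT, and 20.9 and 32.9 in untransfected cells. The 2 genes start 104 bp apart on opposite strands, and the promoter windows share 203 bases. In all 6 lists the summit lay upstream of the DDX20 start, from -254 to -53 bp, within the sequence printed above or just before it.

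ATXN7L2 had a fold enrichment of 9.65 and 10.9 after siFOXA1, 9.10 and 8.46 after siNT and 11.6 and 25.3 in untransfected cells, with summits from -40 to 66 bp of its start. Here the siFOXA1 lists were above the siNT lists. GPSM2 had 8.04 and 7.19, 9.42 and 11.0, and 9.78 and 16.7, with summits from -182 to -31 bp. At this start the siFOXA1 lists were below the siNT lists. Next came CYB561D1, with 9.33 and 6.88, 10.7 and 12.5, and 8.42 and 11.5.

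The other leading gene ends were those of RBM15, an RNA-binding protein gene, and LOC124904276 beside it, RHOC, a small GTPase gene, WDR47, DENND2D, AHCYL1, a regulator of calcium release, and CLCC1. Their siFOXA1 values ran from 5.003 to 8.04, the siNT values from 5.34 to 11.3 and the untransfected values from 7.73 to 17.8. At RBM15 the summits of all 6 lists lay well upstream, from -933 to -826 bp, inside RBM15-AS1, a long non-coding RNA gene that covers 110286375 to 110339171. Summits were within 251 bp of the start in all 6 lists at DDX20's neighbour INKA2, ATXN7L2, GPSM2, CYB561D1, RHOC, AHCYL1 and CLCC1.

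**Figure D5:**
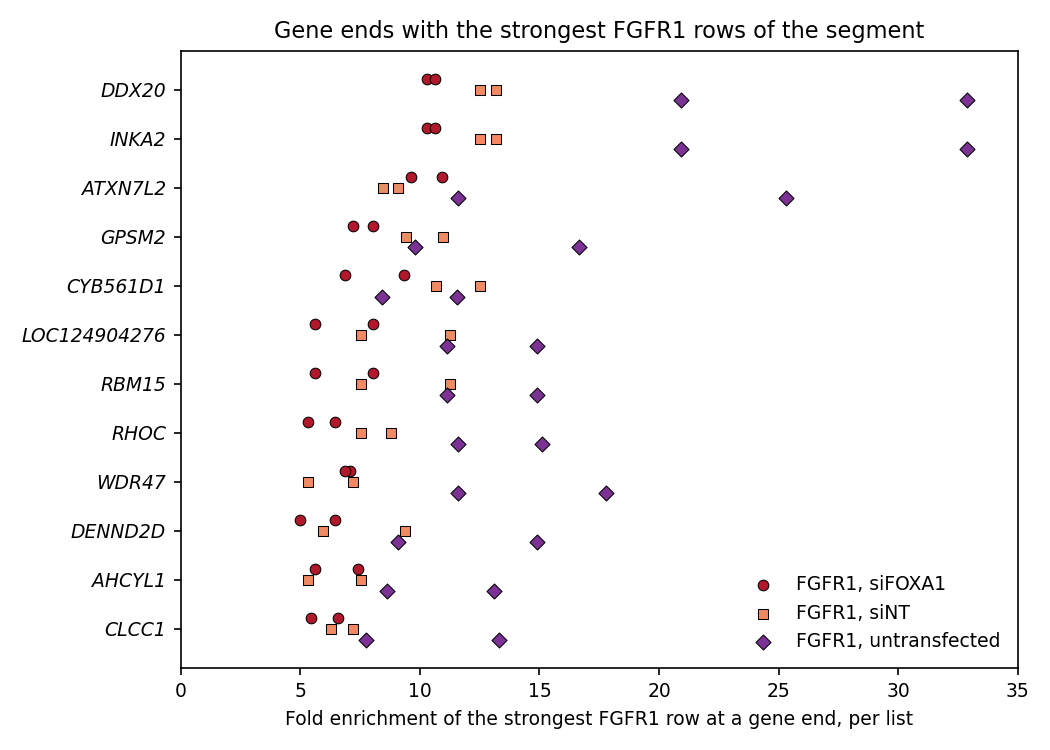
Fold enrichment of the strongest FGFR1 peak within 1 kb of a gene end, per list, for the 12 genes of the segment that rank highest, with siFOXA1 as circles, siNT as squares and untransfected as diamonds. At the start shared by DDX20 and INKA2 all 6 values are above 10, the siFOXA1 values are lowest and the untransfected values highest.

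Some of the strongest FGFR1 regions were not at the end of a protein-coding gene. The region 109099777 to 109100485 had a fold enrichment of 13.5 and 11.6 after siFOXA1, 19.5 and 22.2 after siNT and 24.1 and 35.5 in untransfected cells, the highest of the segment in 5 of the 6 lists. It overlaps SCARNA2, a small Cajal body RNA gene at 109100193 to 109100612, and carried all 4 other targets. A region in the body of CELSR2 (109263453 to 109264011) had 9.004 and 11.3, 22.3 and 20.99, and 8.42 and 16.7, with H3K27ac, H3K4me3 and FOXA1 but no reproducible Pol II S5P. In these regions the siFOXA1 lists were below the siNT lists. Both regions were singled out after their values were seen.

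Gene by gene, 55 of the 79 genes had reproducible H3K4me3 at an end. FGFR1 was at the same end in both siFOXA1 lists for 22 of them (40%), in both siNT lists for 34 (61.8%) and in both untransfected lists for 46 (83.6%). Over all 13303 protein-coding genes with H3K4me3 at an end the shares were 2.83%, 7.1% and 29.9%. Since the segment was chosen for its FGFR1 peaks, nothing is read from that contrast. Of the 24 genes without H3K4me3, 1, 2 and 1 had FGFR1 at an end in both lists.

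Over all 79 genes, FGFR1 was at an end of 25 in both siFOXA1 lists, 37 in both siNT lists and 47 in both untransfected lists, and the role lists are described beside these counts without a test. FGFR1 was at an end in both siFOXA1 lists for 3, in both siNT lists for 6 and in both untransfected lists for 7 of 7 transcription and RNA genes, among them TAF13, a TFIID subunit gene, and MOV10, an RNA helicase gene. For the 12 basic genes, among them SARS1, a seryl-tRNA synthetase gene, and PSMA5, the counts were 3, 8 and 12. All 19 carried H3K4me3, H3K27ac, Pol II S5P and FOXA1 at an end. SARS1 had a fold enrichment of 4.82 and 6.88 after siFOXA1, 5.34 and 8.15 after siNT and 11.1 and 13.99 in untransfected cells.

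Of 9 signalling genes, FGFR1 was at an end of 5 in both siFOXA1 lists, 5 in both siNT lists and 8 in both untransfected lists, the last among them GNAI3, a G protein gene, and LAMTOR5, a scaffold gene of mTORC1 activation. RAP1A, a small GTPase gene, was the exception in untransfected cells and had no H3K4me3 at either end of its annotated span. Its body of 175 kb held 26 and 31 siFOXA1, 41 and 46 siNT and 7 and 19 untransfected FGFR1 peaks. The same body held 6 and 7 H3K4me3 peaks and 53 and 68 H3K27ac peaks. Both epithelial genes, CELSR2 and ELAPOR1, did not have FGFR1 at an end in both siFOXA1 lists, and both had it in both siNT and both untransfected lists. In untransfected cells the glutathione S-transferase genes had it at 2 of 5 (GSTM4 and GSTM3), the potassium channel genes at 1 of 5 (KCNC4) and 13 genes known mainly from other cell types at 2, GPR61 and GNAT2. Those 2 were also the members of the last list with H3K4me3. Both lie beside starts of other genes. The promoter window of GPR61 had neither H3K4me3 nor an FGFR1 peak. Its strongest FGFR1 peak was at its end (109547260), near the start of GNAI3 (109548615). GNAT2 starts at 109619616 and AMPD2 at 109619837, on opposite strands. Which gene these peaks belong to was not tested.

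siFOXA1 was set against siNT to ask whether FGFR1 peaks depend on FOXA1. The segment held 544 and 675 FGFR1 peaks after siFOXA1 and 633 and 649 after siNT, means of 609.5 ± 92.6 and 641 ± 11.3 (SD, n = 2 lists each). The lists overlapped. The sign of the difference, -31.5 peaks, turned with lists of equal length (151.5) and without siFOXA1 replicate 1 (34). As a share of the list, 12.6% and 13.4% of the siFOXA1 peaks and 10.5% and 9.84% of the siNT peaks lay in the segment, a difference of 2.76 percentage points. These shares did not overlap. Numbers of FGFR1 peaks chose the segment, so neither value was tested. The rest of chromosome 1 had fewer peaks after siFOXA1, 569 and 720 against 807 and 899.

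Of 140 regions found in both siNT lists in the segment, 59 (42.1%) had no peak in either siFOXA1 list, beside 34.7% of such regions over all chromosomes. Of 101 regions found in both siFOXA1 lists, 50 (49.5%) had no peak in either siNT list, beside 16.7% over all chromosomes. On the rest of chromosome 1 the counts were 76 of 219 and 11 of 103. These counts changed with the number of lists required. With only 1 siNT list required, 448 of 649 and 453 of 633 regions counted as lost. With only 1 siFOXA1 list required, 485 of 675 and 385 of 544 counted as gained. Among peaks of a -log10 q-value of at least 5, 11 regions of 35 were lost and 3 of 19 gained. Shares over all chromosomes were not computed under these changed rules, so they do not show whether the segment differs.

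Lost and gained regions were weak and mostly away from gene ends. Among the 59 lost regions 28 overlapped H3K27ac, 13 H3K4me3, 21 FOXA1 and 9 a gene end, and among the 50 gained regions 19, 6, 8 and 4. The 29 regions present in all 4 transfected lists differed, with 23 at H3K27ac, 23 at H3K4me3, 23 at FOXA1 and 20 at a gene end. The leading lost region lay 2504 bp from UBL4B with siNT values of 5.65 and 6.58, followed by regions at the end of GPR61 (5.65 and 5.95), near EPS8L3 (6.59 and 5.33) and at the start of TAF13 (6.90 and 5.01). Gained regions with high siFOXA1 values lay in CAPZA1, an actin capping gene (6.43 and 5.003), CEPT1, a phospholipid synthesis gene (5.47 and 5.32), and again CAPZA1 (5.79 and 5.003). The TAF13 region also carried FGFR1 in untransfected cells at 9.10 and 8.66, and 1 siFOXA1 list had another peak of 5.63 within 1 kb of that start.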

How the data were processed

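ChIP-seq peak lists of 7 groups (2 lists each) from CAMA1 cells were used as the authors deposited them; 7 inputs were not analysed here. The submitters' processing notes name hg38, Bowtie2, SAMtools, Picard and MACS2, without versions. Each deposited list holds positions and summits, with fold enrichment as a linear ratio, -log10 of the p-value and -log10 of the q-value for every peak. From the values, each FGFR1 list was called against 1 background, which is the only measure of depth used here. Peak names in the files differ from the labels in places (replicate numbers, FOXA2 for FOXA1), and the labels were followed.

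Chromosomes 1 to 22 and X were used (0.0227% to 2.74% of peaks left out). A reproducible region is an interval of merged peaks (at least 1 bp shared) that holds peaks from each of a group's lists. A gene end is the start or end of a protein-coding gene in RefSeq (GRCh38.p14, the primary assembly of hg38) with 1 kb to each side. Shares were compared over 6 lists by a two-sided exact sign-flip permutation test. Peak numbers after siFOXA1 and siNT are given without a test, since such numbers chose the segment. Named genes were the 12 with the highest mean within-list percentile at an end, genes at the edges, those with leading lost or gained regions and members of role lists; some that this rule names are not reported here. The members, lists and tests were chosen with earlier results of these data known. Steps were tested on simulated data. Python 3.11.15, pandas 2.3.3 and statsmodels 0.14.6 were used.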

Additional observations from a re-analysis of the deposited data

Results flagged for a closer look

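The share of FGFR1 peaks with H3K27ac moved in opposite directions in 2 groups. After siFOXA1 it was higher in the segment than on the rest of chromosome 1 in both lists, 37.5% against 35.5% and 35.6% against 25.1%. In untransfected cells it was lower in both lists, 74.3% against 96.2% and 74.3% against 94.5%. The 2 groups' differences stand 27.3 percentage points apart. That difference was not tested.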

How the results depend on the processing

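FGFR1 density in the segment stayed above the rest under the alternatives run. With peaks of -log10 q of at least 5, the density ratio was 40.5 for siFOXA1, 25.6 for siNT, 6.78 for untransfected FGFR1, 2.80 for H3K27ac, 6.37 for Pol II S5P and 3.15 for FOXA1. With only 1-Mb windows that hold a peak it was 42.98, 34.2 for the transfected groups, 2.83 for H3K27ac, 2.16 for H3K4me3 and 3.44 for FOXA1. Against the rest of all chromosomes it was 87.9, 67.0 and 16.2 for the FGFR1 groups, 3.70 for H3K27ac, 2.67 for H3K4me3, 25.5 for Pol II S5P and 4.41 for FOXA1. For the crowded stretch against chromosome 1 without crowded bins, an alternative chosen after seeing the data, it was 104, 75.2, 18.9, 3.57, 2.71, 31.8 and 4.45. The difference in share (adjusted permutation p = 0.0391 each) was -8.26 points for H3K27ac, -23.4 for H3K4me3, -22.8 for Pol II S5P and -19.1 for gene ends at -log10 q of at least 5. Against the rest of all chromosomes it was -11.98, -25.2, -24.1 and -18.6. With target regions of either list, Pol II S5P was at -8.21 (p = 0.586) and H3K27ac at -0.28 (p = 0.969), and with 3 kb around gene ends these were at -12.2 (p = 0.104), all adjusted permutation p. Against the rest of chromosome 1 without crowded bins, also chosen after seeing the data, the difference was -25.02 for H3K4me3, -19.6 for Pol II S5P, 6.60 for FOXA1 and -21.3 for gene ends (adjusted permutation p = 0.0391 each).

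siFOXA1 minus siNT in peaks of the segment turned to 151.5 with lists of equal length, and leaving out 1 list moved it from -97 to 34. Lost regions were 11 at -log10 q of at least 5, 39 with a reciprocal overlap of 50%, 32 with lists of equal length and 82 to 453 without 1 list. Gained regions were 3, 24 with that overlap, and 60 to 485 without 1 list. Shares over all chromosomes were not computed for these settings. The left edge was 108869780 by untransfected FGFR1, 108867520 by siNT alone and 108746372 at -log10 q of at least 5, and the right edge 110412901 by untransfected FGFR1 and 111834207 at that threshold. Marked genes with FGFR1 at an end were 34 to 36 when 1 siFOXA1 list was left out, and 21 for siNT at -log10 q of at least 5, both chosen after seeing the data. The cause was not tested.

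With a replicate block, siFOXA1 minus siNT remained at 2.76 points of the list and at -31.5 peaks, described without a test. The numbers did not pair the lists by the labels. Deviations of same-numbered lists correlated at 0.264 as counts and at -0.130 as shares of the list over 1384 windows of 1 Mb, and crossed numbers gave the same 2 means. All siFOXA1 comparisons are limited by 2 lists a group.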
